A study of Mus musculus with 6 samples.

Results

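The genes described here were grouped around diethylnitrosamine (DEN), the liver carcinogen that induced these tumours. Not all of these genes act on DEN or on the DNA damage it leaves. They were taken from the deposited gene count table by symbol, and all 8 of 8 were found among 43346 genes. They are the cytochromes P450 Cyp2e1, Cyp2a4, Cyp2a5, Cyp1a1 and Cyp1a2, the P450 reductase Por, the aryl hydrocarbon receptor Ahr and the DNA repair gene Mgmt. RNA was sequenced from 6 DEN-induced mouse liver tumours, 3 labelled Gli1 WT and 3 labelled Gli1 KO. All 6 are labelled Sulf2-TTR, for SULF2 overexpression, so no group labelled without it was compared. SULF2 is a secreted enzyme that removes sulfate from heparan sulfate chains, and GLI1 is the transcription factor through which Hedgehog signals reach their target genes. TTR is the usual abbreviation of the transthyretin promoter, which is active in hepatocytes; the labels do not spell it out. DEN dose, age, strain, the deleted part of Gli1 and which animal each tumour was taken from are not given in the sources used here, so p-values measure the spread between these samples and nothing beyond it. The comparison asks whether these genes differ between Sulf2-TTR tumours labelled Gli1 WT and Gli1 KO. All samples are tumours that DEN had already induced. Their RNA levels therefore do not show DEN activation or DNA repair in the liver at the time of exposure.

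DEN itself does not react with DNA until it is oxidised. In the liver CYP2E1, and in mice also CYP2A5, hydroxylate the carbon next to the nitrosamine group, and the product breaks down to an ethylating ion that attacks DNA. P450 enzymes receive their electrons from POR, and the most active P450s for nitrosamines sit in hepatocytes around the central vein. The aryl hydrocarbon receptor (AHR) is a ligand-activated transcription factor that drives Cyp1a1 and Cyp1a2, whose products are known mainly for activating polycyclic hydrocarbons and aromatic amines. MGMT takes the alkyl group from the O6 position of guanine onto itself and is used up in the reaction.

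Gli1 itself had 10, 20 and 7 reads in WT replicates 1, 2 and 3 and 4, 3 and 3 in the KO replicates, so every KO library was below every WT library, as the labels have it. Summed gene counts ran from 75205624 to 132979502 reads per library, and values below are CPM normalized by edgeR's TMM factors. The hepatocyte list that accompanied the 8 genes was abundant in every tumour, with Alb at 114640 to 167490 CPM. Ddx3y, a Y-linked gene, had 37.6 to 71.2 CPM in all 6 tumours. In edgeR's quasi-likelihood test, 0 of 18359 genes passed an FDR of 0.05 (0% called), 665 (3.62%) had an unadjusted p under 0.05, and DESeq2 called 64 genes (0.352% of those it adjusted). Mouse Sulf2 had 76.4, 11.6 and 5.33 CPM in WT and 164.5, 2.63 and 10.2 CPM in KO, and was thus highest in replicate 1 of each genotype. The labels do not say whether the transgene is of mouse sequence. WT replicate 2 stood apart from the other libraries for several of the genes below, so values of the 8 genes that rest on it are given with and without it, as are those of the list genes it moved most, which were chosen after their values had been seen. In whole tumour tissue, fewer cells of a type and less RNA per cell cannot be told apart.

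Cyp2a4 and Cyp2a5 lie in the same gene cluster on chromosome 7, with other genes between them, and are close paralogs, and the sequences are shown because they bear on how far their counts can be separated. Over the 250 bases before the start, aligned with 4 mismatches and 2 gap positions, 97.6% of positions were identical (RefSeq promoters, GRCm38.p6). The starts used lie past those of the deposited table, 26307190 for Cyp2a4 and 26835305 for Cyp2a5, so each window overlaps the deposited gene. Capitals mark the bases that differ or have no partner.
Cyp2a4 promoter, chr7:26306942-26307191, plus strand: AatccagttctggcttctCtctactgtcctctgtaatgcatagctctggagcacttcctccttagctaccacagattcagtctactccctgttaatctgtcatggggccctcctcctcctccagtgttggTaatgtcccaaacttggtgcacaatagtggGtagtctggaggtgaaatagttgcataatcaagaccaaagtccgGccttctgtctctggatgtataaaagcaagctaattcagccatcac
Cyp2a5 promoter, chr7:26835089-26835338, plus strand: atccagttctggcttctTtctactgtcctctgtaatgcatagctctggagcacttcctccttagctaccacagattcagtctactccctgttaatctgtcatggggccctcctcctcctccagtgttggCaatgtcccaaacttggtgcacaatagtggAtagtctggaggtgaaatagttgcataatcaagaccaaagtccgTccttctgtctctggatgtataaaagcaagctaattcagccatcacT
Their coding sequences (GENCODE M21 transcripts) are 1482 bases each and differ at 23 positions, an identity of 98.4%. The 120-base stretch with the most differences, coding bases 550 to 669, holds 6 of them, again in capitals.
Cyp2a4 coding: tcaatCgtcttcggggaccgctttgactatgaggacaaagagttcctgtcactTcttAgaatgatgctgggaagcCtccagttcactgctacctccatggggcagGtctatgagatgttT
Cyp2a5 coding: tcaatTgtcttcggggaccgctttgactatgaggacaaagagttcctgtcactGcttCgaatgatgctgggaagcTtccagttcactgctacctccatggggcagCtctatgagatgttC
The longest run without a difference is 216 bases. Of all 50-base windows in the Cyp2a4 coding sequence, 38.2% occur in a Cyp2a5 transcript, and of 100-base windows 13.2%. Counting every other gene, 40.5% of the 50-base windows of Cyp2a4 and 51.6% of those of Cyp2a5 are shared. Read length and the handling of reads that fit both genes are not given in the sources used here, so the split of reads between Cyp2a4 and Cyp2a5 is uncertain while their sum is less so. The windows shared with any other gene came to 6.2% and 6.3% at 50 bases for Cyp1a1 and Cyp1a2 and to 0.0% for Cyp2e1, Por, Ahr and Mgmt.

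The Cyp1a1 and Cyp1a2 promoters are shown because AHR drives both genes and because both were highest in the same tumour. The search covered GCGTG, the core of the AHR response element, and TATAAA, the core of the TATA box, on both strands, and capitals mark every match.
Cyp1a1 promoter, chr9:57697363-57697612, plus strand: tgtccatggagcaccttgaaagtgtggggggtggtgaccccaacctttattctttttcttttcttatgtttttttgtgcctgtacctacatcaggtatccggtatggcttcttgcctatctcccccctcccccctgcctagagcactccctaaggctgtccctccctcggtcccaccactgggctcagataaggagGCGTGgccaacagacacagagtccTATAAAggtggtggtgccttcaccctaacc
Cyp1a2 promoter, chr9:57683656-57683905, minus strand: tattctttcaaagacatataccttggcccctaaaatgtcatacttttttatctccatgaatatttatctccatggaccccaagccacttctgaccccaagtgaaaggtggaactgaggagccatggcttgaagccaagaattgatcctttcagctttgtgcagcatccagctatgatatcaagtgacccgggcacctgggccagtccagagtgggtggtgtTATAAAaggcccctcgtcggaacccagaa
Cyp1a1 had 1 GCGTG, beginning 54 bases before the start, and Cyp1a2 had 0 in this window. Por had 3 and the upstream of the 2 Mgmt start sites had 3, while Cyp2e1, Cyp2a4 and Cyp2a5 had 0. Among all 32851 promoter windows of the same length, 28.2% held GCGTG, so a match is common. TATAAA was found in 12.4% of all windows and in all 5 of the P450 genes, 28 to 31 bases before the start. Promoters were matched for 7 of the 8 genes.

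No gene of the 8 passed edgeR's test between genotypes. All 8 were above the low-count filter, 0 passed FDR 0.05 against a background of 0%, and each FDR was 0.9997. By DESeq2 and by limma voom 0 of 8 passed as well. At an unadjusted p under 0.05 there was 1 of 8 by edgeR, Cyp2a4, which was higher in KO, where 1.60% of all genes had such a p in that direction and 2.02% in the other. That p was above 0.05 without WT replicate 1 (0.0731), KO replicate 2 (0.0551) or KO replicate 3 (0.0622) and with the covariate for the number range of the sample descriptions (0.0546). DESeq2 had 3 of 8 at an unadjusted p under 0.05, namely Cyp2a4 (0.00642), Cyp1a2 (0.0301) and Mgmt (0.0497), the last 2 lower in KO, where 3.88% of all genes had such a p in either direction. For Cyp1a2 the difference was -0.03 by edgeR without WT replicate 2. The genotypes did not overlap for 2 of 8 genes (8.11% of all genes tested), namely for Cyp2a4, higher in KO (4.15% of all genes), and for Cyp1a1, lower in KO (3.96% of all genes). Log2 fold changes, KO minus WT, were negative for 6 of 8 and had a median of -0.75, beside -0.01 over all genes tested. Without WT replicate 2, 5 of 8 were negative and the median was -0.10, beside -0.003 over all genes.

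**Figure D1:**
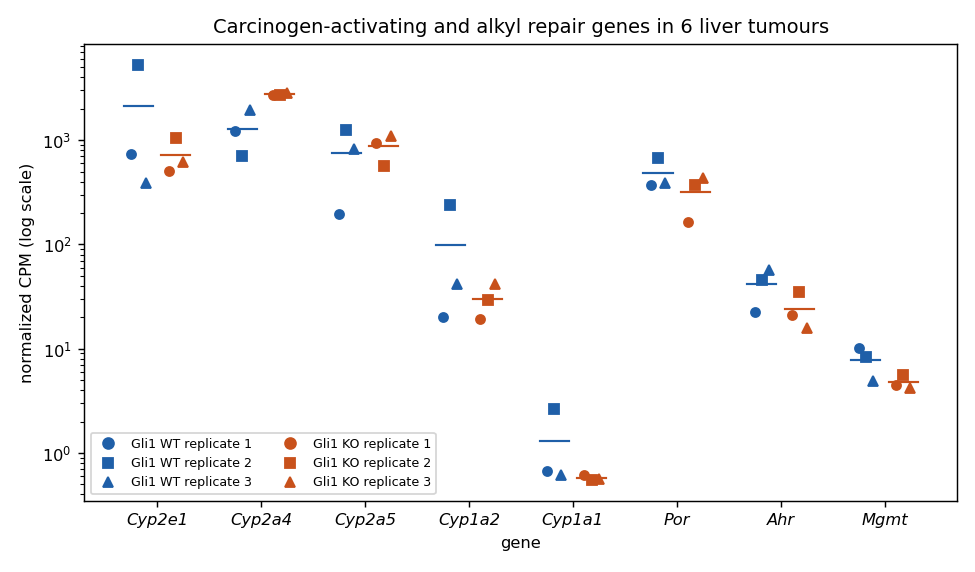
Normalized CPM (log axis) of each of the 8 genes in each library, 3 Gli1 WT (blue) and 3 Gli1 KO (orange), with horizontal lines at the group means. For Cyp2a4 all KO points (2687 to 2848 CPM) lie above all WT points (712 to 1930 CPM), and for Cyp2e1, Cyp1a2 and Cyp1a1 WT replicate 2 lies far above the other 5 libraries.

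Levels can be compared between genes only per length, and the order of Cyp2e1 and Cyp2a4 in WT rested on 1 library. Per kb of the deposited coding length, mean normalized CPM in WT ran from Cyp2e1 (1173) through Cyp2a4 (749), Cyp2a5 (363), Por (119.7), Cyp1a2 (52.7), Mgmt (9.46) and Ahr (6.73) to Cyp1a1 (0.50). Cyp2e1 was above Cyp2a4 in WT replicate 2 only (2897 against 415 CPM per kb), and without that library the WT means were 916 for Cyp2a4, 311 for Cyp2e1 and 245 for Cyp2a5. In KO the order began with Cyp2a4 (1598), followed by Cyp2a5 (419.9), Cyp2e1 (396), Por (79.8), Cyp1a2 (15.9), Mgmt (5.81), Ahr (3.89) and Cyp1a1 (0.22). In WT the ranges over the 3 libraries overlapped for every neighbouring pair in that order except Ahr and Cyp1a1. In KO the per-kb levels of Cyp2a4 (1565 to 1659 in the 3 libraries) lay above those of every other gene of the 8, and those of Cyp2a5 (274 to 530) and Cyp2e1 (277 to 574) overlapped. Mgmt and Ahr overlapped as well, and the other neighbours in KO did not.

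Cyp2e1 (ENSMUSG00000025479, plus strand of chromosome 7, 140763739 to 140774975, 9 exons) encodes the main enzyme that activates DEN. WT replicates 1, 2 and 3 had 744, 5294 and 391 normalized CPM of it, against 506, 1050 and 613 in KO replicates 1, 2 and 3. The highest library, WT replicate 2, was 5.04 times the next, the other 2 WT values lay within or below the KO range, and the genotypes overlapped. On the log2 scale KO minus WT came to -1.57 ± 0.96 (SE, here and below over 3 libraries a group), with a 95% interval from -3.86 to 0.73 (edgeR FDR 0.9997, unadjusted p = 0.149). Without WT replicate 2 it was 0.35 ± 0.45, in the opposite direction.

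Cyp2a5 (ENSMUSG00000005547, plus strand of chromosome 7, 26835305 to 26843548) encodes the mouse coumarin 7-hydroxylase, which also activates nitrosamines. It had 194.5, 1242 and 822 CPM in WT and 945, 568 and 1098 CPM in KO. WT replicate 1 was lowest and WT replicate 2 highest of all 6, so the KO values lay inside the WT range. KO minus WT was 0.21 ± 0.64 on the log2 scale (95% interval -1.31 to 1.73, edgeR FDR 0.9997). It was 0.78 without WT replicate 2 and -0.24 without WT replicate 1.

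Cyp2a4 (ENSMUSG00000074254, plus strand of chromosome 7, 26307190 to 26315088) encodes a steroid 15-alpha-hydroxylase and is a female-predominant gene of mouse liver. It had 1216, 712 and 1930 CPM in WT replicates 1, 2 and 3 and 2697.5, 2687 and 2848 in the KO replicates. The KO tumours lay close together (2744 ± 90.1, SD, n = 3), above all WT tumours (1286 ± 612). Its log2 fold change of 1.09 ± 0.39 (95% interval 0.17 to 2.01, unadjusted p = 0.0264) missed the threshold after adjustment (edgeR FDR 0.9997). By exact permutation of the libraries, two-sided on CPM, p was 0.1, and no split of 3 against 3 can give less. Leaving out each library in turn gave values between 0.80, when WT replicate 2 was dropped, and 1.51, when WT replicate 3 was.

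The sum of Cyp2a4 and Cyp2a5 depends less on how reads were split between them. Reads fitting both genes could still change it if they were dropped or counted in each. The sum was 1410, 1954 and 2752 CPM in WT and 3643, 3255 and 3946 CPM in KO. All KO values lay above all WT values. Fitted as 1 feature, the sum had a log2 fold change of 0.83 ± 0.31 (unadjusted p = 0.0353, edgeR FDR 0.9997). Reads of Cyp2a4 per read of Cyp2a5 varied within WT, at 6.25, 0.574 and 2.35, and were 2.85, 4.73 and 2.59 in KO. More reads fell on Cyp2a5 than on Cyp2a4 in WT replicate 2 alone, and the ratio overlapped between genotypes (two-sided exact permutation p = 0.7 on log2 ratios), so a different response of the 2 paralogs was not shown. The other Cyp2a genes on the list did not pass either, with log2 fold changes of 0.61 ± 0.34 for Cyp2a22 and -0.06 ± 0.29 for Cyp2a12.

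**Figure D2:**
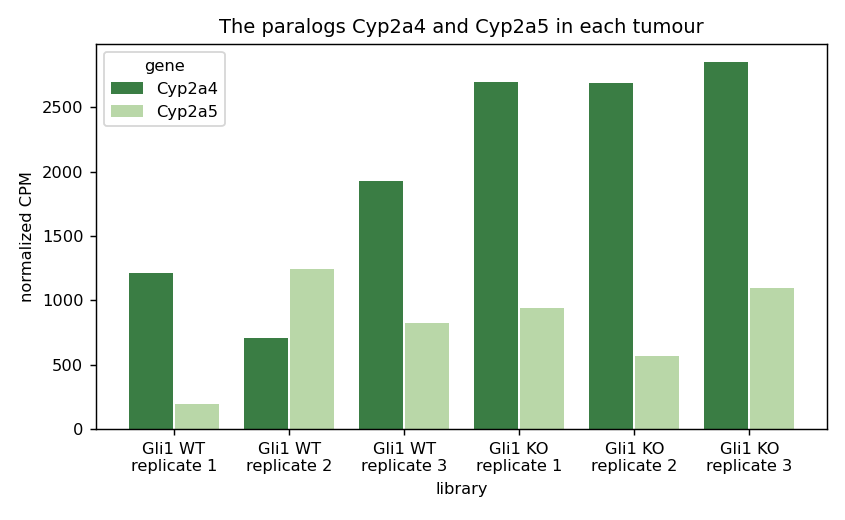
Normalized CPM of Cyp2a4 (dark bars) and Cyp2a5 (light bars) in each library. Cyp2a4 is at 2687 to 2848 CPM in the 3 KO libraries and at most 1930 CPM in WT, while Cyp2a5 ranges from 194.5 to 1242 CPM with its extremes both in WT.

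Female-predominant liver genes on the accompanying list lay the other way from Cyp2a4. Of 8 tested, 8 had a negative log2 fold change, with a median of -1.77, and 0 passed FDR 0.05. Without WT replicate 2, 7 of 8 were negative, with a median of -0.67. Fmo2, a flavin monooxygenase, had 55.0, 218 and 85.0 CPM in WT and 25.9, 41.3 and 29.0 CPM in KO (log2 fold change -1.90 ± 0.52, and -1.12 without WT replicate 2). The transcription factor Cux2 had 2.08, 78.0 and 10.1 CPM in WT and 0.361, 1.53 and 2.88 CPM in KO. Its log2 fold change of -4.24 ± 1.43 became -1.94 without WT replicate 2. For 7 of these 8 genes WT replicate 2 was the highest library, while for Cyp2a4 it was the lowest. Male-predominant genes had 6 of 8 negative and a median of -0.35, with 0 past FDR 0.05, and without WT replicate 2 they had 2 of 8 negative and a median of 0.53. Selenbp2 had 2.503 ± 0.87, with 588 CPM in KO replicate 2 against 25.3 to 124.8 elsewhere, and 1.08 without that library. The oxysterol 7-alpha-hydroxylase Cyp7b1 had 16.4, 135.3 and 5.68 CPM in WT and 9.51, 15.9 and 25.0 CPM in KO. Its value was -1.64 ± 1.09, and 0.61 without WT replicate 2.

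Por (ENSMUSG00000005514, plus strand of chromosome 5, 135670033 to 135735326) passes electrons from NADPH to all microsomal P450 enzymes. It had 376, 676 and 391 CPM in WT and 163, 368 and 431 CPM in KO. It was highest in WT replicate 2 and lowest in KO replicate 1, and the other 4 libraries lay between 368 and 431 CPM. A log2 fold change of -0.58 ± 0.43 was fitted (95% interval -1.60 to 0.43, edgeR FDR 0.9997), and it was -0.26 when either WT replicate 2 or KO replicate 1 was left out. The other electron partners had 4 of 6 positive, a median of 0.21 and 0 past FDR 0.05. The cytochrome b5 reductase Cyb5r3 had 0.35 ± 0.24 and the cytochrome b5 gene Cyb5a had -0.33 ± 0.24. Cyb5a was highest in WT replicate 2, at 671 CPM against 394 to 486 in the rest.

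Ahr (ENSMUSG00000019256, minus strand of chromosome 12, 35497974 to 35535038) had 22.6, 45.5 and 56.3 CPM in WT and 21.2, 35.0 and 15.7 CPM in KO. WT replicates 2 and 3 were the highest and KO replicate 3 the lowest, with WT replicate 1 inside the KO range. KO minus WT was -0.79 ± 0.42 on the log2 scale (95% interval -1.79 to 0.21, edgeR FDR 0.9997). Dropping KO replicate 2 made it -1.16, and dropping WT replicate 3 made it -0.50.

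Cyp1a2 (ENSMUSG00000032310, minus strand of chromosome 9, 57676937 to 57683655), the constitutive CYP1A of liver, had 20.1, 237.5 and 41.3 CPM in WT and 19.1, 29.3 and 41.9 CPM in KO. Its level in WT replicate 2 was 5.67 times the next, and the remaining 5 shared a range of 19.1 to 41.9 CPM. KO minus WT came to -1.73 ± 0.89 on the log2 scale (95% interval -3.86 to 0.41, edgeR FDR 0.9997), and to -0.03 without WT replicate 2.

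Cyp1a1 (ENSMUSG00000032315, plus strand of chromosome 9, 57697613 to 57703822), the inducible CYP1A, was barely detected. The libraries held 54, 200 and 55 reads in WT and 65, 73 and 47 in KO, or 0.676, 2.64 and 0.618 CPM against 0.617, 0.549 and 0.567 CPM. The highest library, again WT replicate 2, was 3.91 times the next, and WT replicate 3 was above KO replicate 1 by a margin of less than 1 read. The fitted log2 difference of -1.18 ± 0.63 (95% interval -2.67 to 0.31, edgeR FDR 0.9997) became -0.16 without WT replicate 2. Cyp1a1 and Cyp1a2 were thus highest in the same tumour, where Ahr, at 45.5 CPM, was second to WT replicate 3. That tumour held 17977 reads of Cyp1a2, and 6.3% of the 50-base windows of Cyp1a2 also occur in Cyp1a1. Whether reads of Cyp1a2 were counted for Cyp1a1 was not tested, so the 2 peaks may not be separate observations.

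None of the partners of AHR and its other target genes passed the test. Of 12 on the list, 10 were tested, 4 positive and 6 negative, with a median of -0.24 and 0 past FDR 0.05. Tiparp, a target that feeds back on AHR, had 8.12, 14.995 and 55.6 CPM in WT and 15.6, 6.997 and 7.66 CPM in KO (log2 fold change -1.38 ± 0.73, and -0.20 without WT replicate 3). The oxidoreductase Nqo1, which NRF2 also drives, had 9.21, 14.2 and 19.5 CPM in WT and 13.6, 6.89 and 8.49 CPM in KO (-0.56 ± 0.36). Both were highest in WT replicate 3, the tumour with most Ahr, and not in WT replicate 2, the tumour with most Cyp1a1 and Cyp1a2. Of the 10 tested, 3 were highest in WT replicate 2, namely Arnt, Ugt1a6a and Ugt1a6b. Arnt, at 50.6 CPM, was little above the next library, WT replicate 1, at 48.2 CPM. Ugt1a6a and Ugt1a6b had 805 and 792 CPM in WT replicate 2 against 356 and 354 CPM in WT replicate 3. Their values were close to each other in every library, so the same reads may stand behind both, which was not tested. Cyp1b1 overlapped at 0.54 to 1.81 CPM. Ahrr and Aldh3a1 were below the low-count filter.

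**Figure D3:**
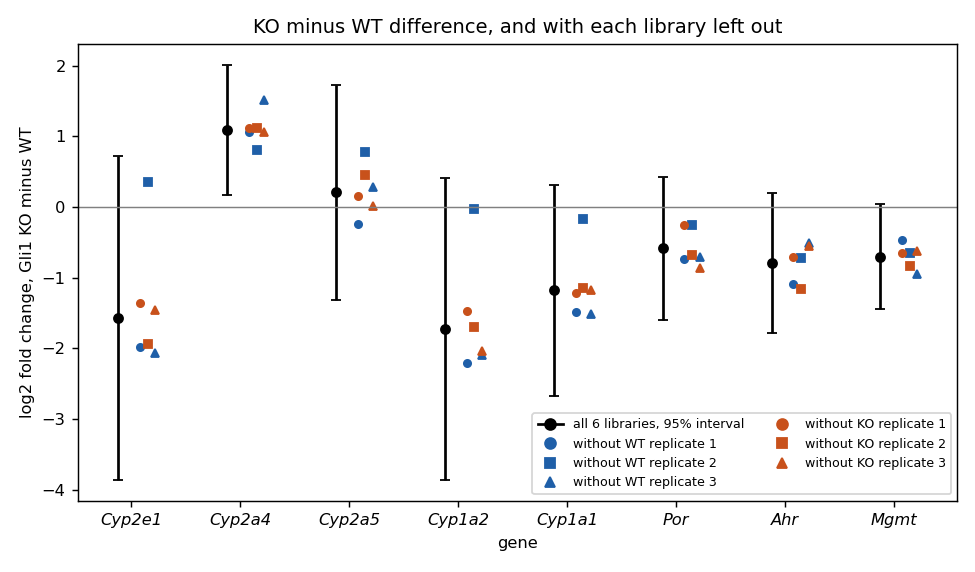
Log2 fold change, Gli1 KO minus WT, of each of the 8 genes with its 95% interval (black) and with each library left out in turn (coloured). The value for Cyp2e1 moves from -1.57 to 0.35 and that for Cyp1a2 from -1.73 to -0.03 without WT replicate 2, while that for Cyp2a4 stays between 0.80 and 1.51.

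WT replicate 2 stood apart for several of these genes and for genes of several of the accompanying lists. It was the highest of the 6 libraries for 5 of the 8 genes (Cyp2e1, Cyp2a5, Cyp1a1, Cyp1a2 and Por), where 20.0% of all genes tested were highest there. It was at least 2-fold above the next library for 3 of 8, against 1.55% of all genes tested. These counts were made after the values had been seen. The pericentral hepatocyte markers moved with them, 8 of 10 being highest in WT replicate 2 and 7 at least 2-fold above the next library. So did other lists: WT replicate 2 was highest for 7 of 8 female-predominant genes (5 at least 2-fold above the next), 6 of 8 macrophage and Kupffer cell markers (3) and 5 of 8 male-predominant genes (2). Glul, the glutamine synthetase of the innermost pericentral hepatocytes, had 58.3, 581 and 91.4 CPM in WT and 87.4, 111.7 and 110.4 CPM in KO. The glutamate transporter Slc1a2 had 126 CPM in WT replicate 2 and 5.47 to 16.5 CPM in the others. The exceptions were Lgr5, highest in KO replicate 1 at 1.87 CPM, and Gstm3, highest in KO replicate 3 at 221 CPM. Summed over the list, pericentral markers came to 238, 1944 and 306 CPM in WT and 434, 437 and 728 CPM in KO.

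**Figure D4:**
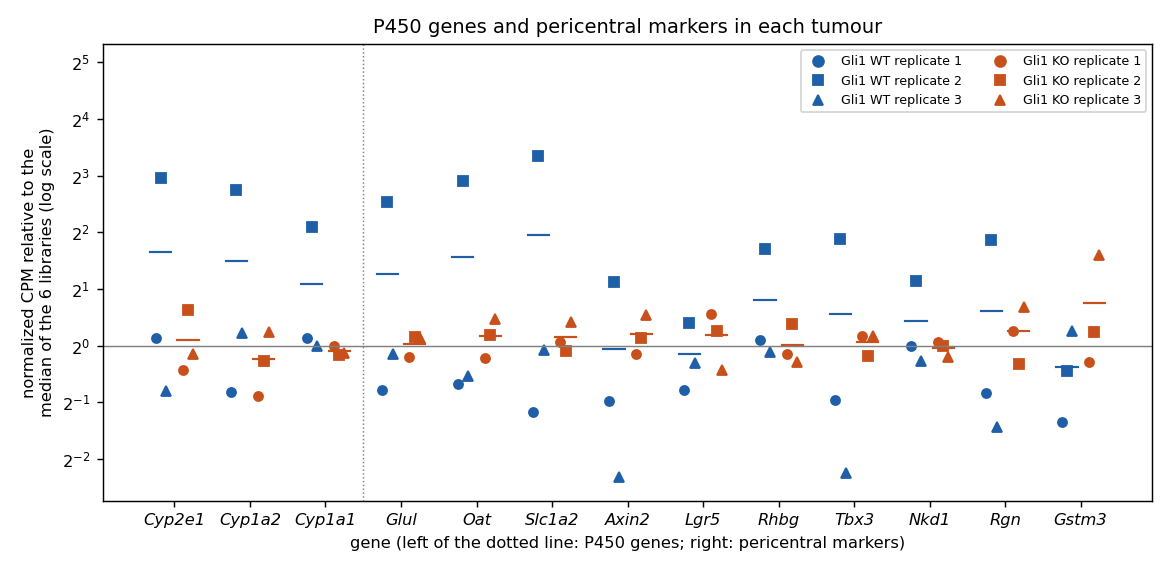
Normalized CPM of 3 P450 genes (left of the dotted line) and of all 10 pericentral markers (right), each divided by the gene's median over the 6 libraries, on a log axis, with lines at the group means. WT replicate 2 is the highest point for the 3 P450 genes and for 8 of the 10 markers, Lgr5 and Gstm3 being the exceptions.

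Between genotypes the pericentral list had 7 of 10 negative, a median of -0.48 and 0 past FDR 0.05, with Gstm3 at 1.12 ± 0.59 and Slc1a2 at -1.80 ± 1.09. Without WT replicate 2, 0 of 10 were negative, the median was 0.75 and Slc1a2 had 0.68. Periportal markers had 7 of 8 negative and a median of -0.36, again with 0 past FDR 0.05, and all but Aldh1b1 were lowest in KO replicate 1. Sds had -0.81 ± 0.66 and the histidine ammonia-lyase Hal had -0.50 ± 0.41. Without KO replicate 1, 5 of 8 periportal markers were negative and the median was -0.08, with Sds at -0.32 and Hal at -0.19. Whether the zone of the liver lobule that a tumour resembles plays a part in the P450 values was not tested.

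Among the transcription factors known to act on these P450 genes, 3 of 7 were positive and 4 negative, with a median of -0.03 and 0 past FDR 0.05. Nfe2l2 (NRF2), which acts on Cyp2a5, had 63.6, 58.3 and 74.7 CPM in WT and 114.6, 95.02 and 81.1 CPM in KO, without overlap (log2 fold change 0.56 ± 0.19, unadjusted p = 0.0239, edgeR FDR 0.9997). Nr1i3, the xenobiotic receptor CAR, had 133.7, 552 and 52.2 CPM in WT and 69.4, 111.9 and 53.5 CPM in KO (-1.65 ± 0.83, and -0.25 without WT replicate 2), and was thus highest in WT replicate 2 as Cyp2e1 was.

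Mgmt (ENSMUSG00000054612, plus strand of chromosome 7, 136894611 to 137128187, 5 exons) had 10.1, 8.26 and 4.84 CPM in WT and 4.48, 5.58 and 4.20 CPM in KO. WT replicates 1 and 2 lay above all KO tumours, and WT replicate 3 lay inside the KO range. KO minus WT was -0.70 ± 0.31 on the log2 scale (95% interval -1.44 to 0.04, unadjusted p = 0.0599, edgeR FDR 0.9997). With each library dropped in turn it remained negative, between -0.95 (no WT replicate 3) and -0.46 (no WT replicate 1).

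Other genes that repair alkylated DNA did not pass the test either. Of 10 genes for direct reversal and base excision, 4 were positive and 6 negative, the median was -0.02 and 0 passed FDR 0.05. The flap endonuclease Fen1 had 0.82 ± 0.53, with 10.6 CPM in KO replicate 3 against 2.67 to 4.52 elsewhere, and 0.10 without that library. The uracil glycosylase Ung had -0.40 ± 0.44, and 0.17 without WT replicate 1. The demethylase Alkbh2, which like MGMT reverses alkyl damage directly, had 4.58 to 6.12 CPM in WT and 4.39 to 4.92 CPM in KO (-0.16 ± 0.22). The glycosylase Mpg, which removes alkylated purines, had 0.18 ± 0.29. Mismatch repair, which processes unrepaired O6-alkylguanine, had 5 of 6 positive, a median of 0.08 and 0 past FDR 0.05. The exonuclease Exo1 had 0.225, 0.106 and 0.225 CPM in WT and 0.579, 0.233 and 2.59 CPM in KO (2.60 ± 0.94, unadjusted p = 0.029, edgeR FDR 0.9997), and 1.12 without KO replicate 3. Msh6 had 0.26 ± 0.25.

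Markers of other cell types differed between the same libraries, with 0 genes past FDR 0.05 in each list, and their part in the values above was not tested. Hepatocyte markers had 5 of 7 negative and a median of -0.08, and summed to 150240 to 200040 CPM in WT against 140920 to 162450 in KO. Of the 8 markers of macrophages and Kupffer cells, 7 were negative, with a median of -0.999 and sums of 88.3 to 295.6 CPM in WT, highest in replicate 2, and 74.9 to 117.6 in KO; the median was -0.69 without WT replicate 2. All 5 of 5 neutrophil markers were negative (median -1.83, sums of 9.77 to 35.5 against 4.83 to 8.79 CPM). Without WT replicate 3, 4 of 5 neutrophil markers were negative, with a median of -1.01. T and NK cell markers had 6 of 6 negative (median -1.13, 2.62 to 5.11 against 1.80 to 2.77 CPM), and B and plasma cell markers 5 of 5 (median -1.18, 7.21 to 59.9 against 6.01 to 19.6 CPM). The highest B and plasma cell sum, in WT replicate 3, was mostly Jchain (57.0 CPM), which had a log2 fold change of 1.14 without that library. Several T, NK and B cell markers were below 1 CPM. Endothelial markers had 4 of 6 negative (median -0.59, 176 to 221 against 121 to 163 CPM). Stellate and fibroblast markers had 7 of 7 positive (median 1.13, 41.5 to 238 against 178 to 411 CPM). Cholangiocyte markers had 4 of 5 negative (median -0.33, 38.8 to 479 against 75.0 to 472 CPM), and 1 of 5 without WT replicate 3 (median 1.16). No marker of these lists was at 0 in all 6 libraries.

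As a description of likeness, the genes with the highest Pearson r of log2 normalized CPM over the 6 libraries were listed for each of the 8. Values this high are found by searching 18359 genes over 6 points, so they say little of any gene. Next to Cyp2e1 stood B230317F23Rik (r = 0.997), at 0.713 CPM in WT replicate 2, and Acbd4 (r = 0.989), at 24.2 CPM in WT replicate 2 and 15.3 to 17.5 in the others. Aatk (r = 0.997) was nearest to Cyp1a1, with 10.7 CPM in WT replicate 2 and 1.33 to 1.79 elsewhere. Near Cyp1a2, second in order, was Cyp2c70 (r = 0.984), a bile acid hydroxylase of mouse, with 824 CPM in WT replicate 2 and 177 to 358 in the others. Vangl1 (r = 0.992) lay nearest to Cyp2a4, Mtr (r = 0.989) to Cyp2a5, the carnitine transporter gene Slc22a5 (r = 0.997) to Por, Tab2 (r = 0.99) to Ahr and Ppm1m (r = 0.996) to Mgmt.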

How the data were processed

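Each gene of the authors' table has a raw count and an RPKM value in every library. The tools listed in the submitters' processing notes are bcl2fastq, HTSeq and TopHat2 2.0.6, with no roles stated; the builds listed are human (hg19, GRCh37), but the gene identifiers are those of mouse. The deposited intervals of the 8 genes overlap those of GENCODE M21 on GRCm38 and share a start or an end with it in 6 of 8, so the deposited coordinates were taken as GRCm38. No source used here states the strand setting. RPKM values deposited by the authors were not used in tests. Por overlaps 1 other deposited gene, Gm16061, with 341 reads in all libraries together.

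The test on the deposited counts was that of edgeR 4.0.16 under R 4.3.3 (filterByExpr, TMM factors, robust quasi-likelihood test, two-sided, Benjamini-Hochberg over 18359 genes, threshold FDR 0.05). DESeq2 1.42.0 and limma voom 3.58.1 were alternatives, and the fits were tested on simulated data. The standard error is that of the log2 fold change. The 8 genes and the accompanying lists were chosen with earlier results of these data known. Named genes are the 8, and in lists of pathway genes the 2 of smallest p; for marker lists of cell types counts are given. Other genes named, such as Glul, Alkbh2, Mpg and Cyp1b1, were chosen after their values were seen or for their role. Of the list entries, Adgre1 and Jchain matched through the GENCODE name and Tf had no match.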

Additional observations from a re-analysis of the deposited data

How the results depend on the processing

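The number of these 8 genes past FDR 0.05 was 0 under every alternative run. The number of all genes called was 0 except with DESeq2, which called 64, and it ran from 0 to 0 when each library was left out. The direction of the log2 fold change reversed in 2 cases: Cyp2e1 without WT replicate 2 (0.35) and Cyp2a5 without WT replicate 1 (-0.24). With each library left out, values ran from -2.06 to 0.35 for Cyp2e1 and from -0.24 to 0.78 for Cyp2a5. All other alternatives kept the direction of each gene. Deviations of same-numbered libraries from their group means had correlations of -0.29, 0.18 and -0.34. With 3 libraries a group these values cannot decide whether the replicate number pairs the libraries. With the replicate number as a block 0 genes were called, and the log2 fold change was -0.73 for Cyp2e1, -0.95 for Cyp1a2, 0.51 for Cyp2a5 and 1.21 for Cyp2a4. Each sample description begins with a number, below 2000 or above 3900. WT and KO had 1759 and 1767 in replicates 1, 4204 and 4206 in replicates 2, and 3981 and 1647 in replicates 3. With the split between these 2 ranges as a covariate the value was -0.83 for Cyp1a2, -0.92 for Cyp2e1, 0.77 for Cyp2a5 and -0.42 for Ahr. Voom gave -1.04 for Cyp1a2 and -0.78 for Cyp2e1. Cyp1a1 gave no value under a minimum of 1 CPM in 3 libraries, which it did not meet. Over all alternatives FDR ran from 0.437 to 1 for Cyp2a4 and from 0.456 to 1 for Mgmt. The 95% intervals given beside each gene show the differences that 3 libraries a group leave possible.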
